A study of Mus musculus with 12 samples.

Results

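Matrix metalloproteinases and their tissue inhibitors are described here by 8 genes, Mmp2, Mmp7, Mmp9, Mmp12, Mmp14, Timp1, Timp2 and Timp3, taken by symbol from the 22053 rows of a table of kidney gene expression. Of these, 5 encode proteases and 3 encode inhibitors, and each symbol matched 1 row. RNA sequencing was done on whole kidney tissue of 12 C57BL/6 wild-type mice, 4 in each of 3 groups. Control mice received an adenine-free diet and weekly i.p. PBS. CKD mice were fed the same diet with 0.2% adenine from 8 to 16 weeks of age and also received PBS. CKD+Fe mice were fed adenine over the same weeks and were given iron dextran i.p. each week, 0.5 g/kg, in place of PBS. Each mouse gave 1 library and is named by its number in the labels. The values are FPKM, which are fragments divided by transcript length and by the mapped reads of the mouse, so levels can be compared between genes.

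Matrix metalloproteinases are zinc-dependent enzymes that are made as inactive proforms and cut collagens, laminins, elastin and other proteins of the extracellular matrix, as well as cell surface proteins and growth factors. Tissue inhibitors of metalloproteinases bind the active site of these enzymes and block it. Timp2 has a further role, since on the cell surface it links the membrane-bound protease Mmp14 to the proform of Mmp2. This link is a step in the activation of Mmp2. In fibrotic kidney this system is studied because matrix builds up while both the enzymes and their inhibitors are made. Transcript levels do not report how much of an enzyme is active.

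Some facts of the whole data set bear on the values below. A log2 fold change is a difference of mean log2(FPKM + 1), and it was tested with limma in 1 fit of all 12 mice over 13148 genes, those that reached 1 FPKM in 4 or more mice. The word called means an adjusted p under 0.05 after Benjamini-Hochberg adjustment. The median gene tested had a log2 fold change of 0.502 for CKD and 0.5 for CKD+Fe mice, each against control, so fold changes against control are read against that shift. Rescaling the mice by the median of ratios brought the first median to -0.0258 and took the share of higher genes among called genes from 80.4% to 46.7%. In each group 1 mouse (control 042301, CKD 110310 and CKD+Fe 042702) lay at least 2-fold from the rest of its group in 442 to 805 genes, against 41 to 225 genes for the other mice. The proximal tubule markers summed to 66936 to 91414 FPKM (control), 1276 to 8071 (CKD) and 2315 to 10484 (CKD+Fe). Most of this was 1 gene, Kap, and the other 5 summed to 1524 to 2645 FPKM (control), 249.5 to 517 (CKD) and 324 to 744 (CKD+Fe).

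Of the 8 genes, 7 were higher and 1, Timp3, was lower in CKD than in control mice, where 54.6% of all genes were called higher and 13.3% lower. The lower call of Timp3 was lost with quantile normalization (adjusted p = 0.11). None of the 8 was called between CKD+Fe and CKD mice. Timp3 was by far the most abundant member in control kidney, while Mmp7 and Mmp9 were under 1 FPKM in every control mouse. In CKD mice Timp1 and Timp3 had overlapping levels, and Mmp7, Mmp12, Timp1 and Timp2 all stood within the same range of means, from 113 to 206 FPKM.

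**Figure D1:**
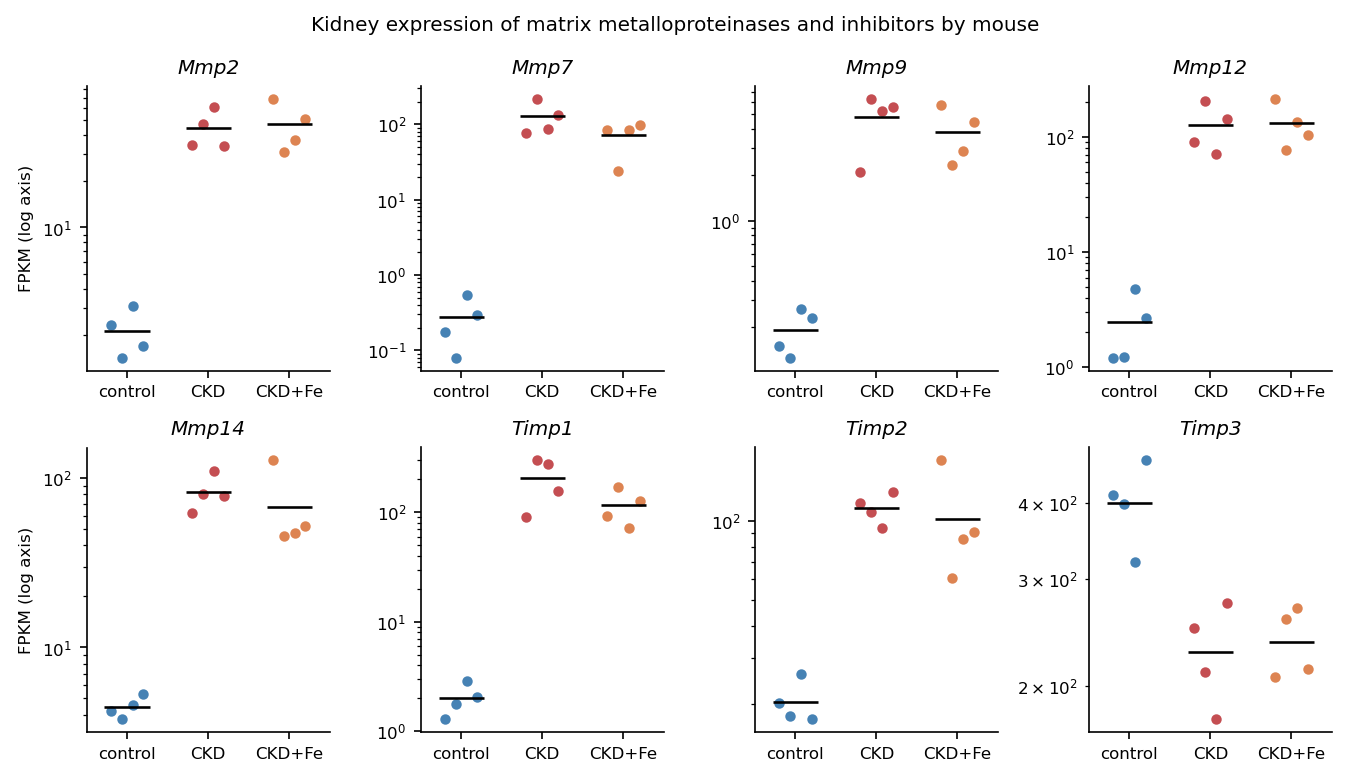
FPKM of the 8 genes in each mouse, on log axes that differ between panels, with points for the 4 mice of each group and a line at the group mean. For 7 genes every CKD and CKD+Fe mouse lies above every control mouse, for Timp3 every one lies below, and the CKD and CKD+Fe points overlap in all 8 panels.

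Mmp7 encodes matrilysin, a small secreted protease of epithelial cells that cuts E-cadherin and many matrix proteins. It lies at chr9:7692090-7699585 on the plus strand of GRCm38. The 4 control mice had 0.176, 0.079, 0.544 and 0.291 FPKM, CKD mice 76.9, 217, 85.5 and 132 FPKM, and CKD+Fe mice 83.3, 24.3, 83.0 and 97.5 FPKM. Every mouse fed adenine was far above every control mouse, and CKD+Fe mouse 062910 was the lowest of the 8. CKD mice exceeded control mice by 6.55 on the log2 scale (SE 0.40, adjusted p = 4.9e-08). The control values rest on few reads. From the step that 1 read makes in the FPKM of genes with 1 transcript, they correspond to an estimated 2 to 13 reads per control mouse, against 1789 to 4827 in CKD mice. With a pseudocount of 0.1 FPKM in place of 1 the log2 fold change was 8.46, so its size depends on how near-zero values are treated.

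Mmp12 encodes macrophage elastase, which degrades elastin and is made mainly by macrophages. It lies at chr9:7344381-7369499 on the plus strand, in the same gene cluster as Mmp7. Control mice had 1.20, 1.23, 4.78 and 2.67 FPKM, CKD mice 89.6, 207, 71.0 and 142 FPKM, and CKD+Fe mice 214, 77.6, 134 and 103 FPKM. The highest control mouse, 042301, was well below the lowest mouse fed adenine. This was a log2 fold change of 5.21 for CKD against control (SE 0.39, adjusted p = 2.6e-07). Summed FPKM of 7 macrophage marker genes (Itgam, with more than 1 row, was left out) moved the same way, from 84.2 to 144 in control mice to 685 to 1513 in CKD and 763 to 1471 in CKD+Fe mice, and all 7 markers averaged at least 1 FPKM. The part of the macrophage content in the Mmp12 level was not tested. In whole tissue, a change in the number of cells of a type and a change in RNA per cell cannot be told apart.

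The sequences before the start sites of 4 members are shown. These are the members with the largest rises in CKD against control mice (Mmp7, Timp1 and Mmp12) and Timp3, which was lower. They are the 250 bases before the start in the RefSeq promoter table for GRCm38.p6, which held 6 of the 8 members and not Mmp2 or Mmp9. Each reads 5′ to 3′ on the strand of the gene, and capitals mark matches to the AP-1 motif TGANTCA or to TATAAA.
Mmp7, chr9:7691840-7692089: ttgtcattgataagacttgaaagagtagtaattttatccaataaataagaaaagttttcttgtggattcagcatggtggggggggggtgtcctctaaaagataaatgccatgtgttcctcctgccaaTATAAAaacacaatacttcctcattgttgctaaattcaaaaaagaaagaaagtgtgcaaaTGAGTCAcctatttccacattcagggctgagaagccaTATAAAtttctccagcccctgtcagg
Mmp12 second start, chr9:7347124-7347373: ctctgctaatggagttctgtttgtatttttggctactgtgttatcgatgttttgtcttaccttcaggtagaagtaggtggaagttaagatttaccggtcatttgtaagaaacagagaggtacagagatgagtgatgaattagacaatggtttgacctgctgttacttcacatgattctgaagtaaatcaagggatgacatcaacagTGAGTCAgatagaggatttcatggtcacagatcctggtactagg
Timp1, chrX:20869916-20870165: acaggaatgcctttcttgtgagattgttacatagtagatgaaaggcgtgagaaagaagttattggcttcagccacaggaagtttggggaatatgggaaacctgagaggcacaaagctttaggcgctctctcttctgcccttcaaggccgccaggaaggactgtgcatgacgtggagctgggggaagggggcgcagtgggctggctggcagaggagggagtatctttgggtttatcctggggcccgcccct
Timp3, chr10:86300162-86300411: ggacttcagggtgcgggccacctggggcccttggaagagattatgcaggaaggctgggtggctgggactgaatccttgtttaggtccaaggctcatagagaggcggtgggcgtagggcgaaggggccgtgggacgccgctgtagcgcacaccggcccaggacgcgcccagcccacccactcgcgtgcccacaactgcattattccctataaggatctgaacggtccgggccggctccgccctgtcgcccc

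The Mmp7 window shown held 1 match to TGANTCA, at base -63 from the start, and 2 matches to TATAAA, at -123 and -26. A match to TGANTCA stood at -44 in the Mmp12 window. Over all 32851 windows of the same length, 6.75% held TGANTCA, which reads the same on both strands, and 12.4% held TATAAA on either strand. None of the Timp1, Timp2, Timp3 and Mmp14 windows held either motif. Another motif searched, AGGAAG (PEA3) on either strand, was in 29.5% of all windows. It had 2 matches in the Timp1 window, 1 in each of the Mmp7 window shown and the Mmp14 and Timp3 windows and none in that of Timp2. The window of the first Mmp12 start, at chr9:7344147-7344396, is not printed and held 1 match to AGGAAG and neither other motif. The Mmp12 window shown, which has the TGANTCA match, lies inside the gene. A second Mmp7 window, at chr9:7692091-7692340, also lies inside its gene. It held 1 match to AGGAAG and neither other motif. GC content was 53.2% for the second Mmp7 window, close to the median of all windows (52.4%). It was 38.0% for the Mmp7 window shown and 39.6% for the second Mmp12 start, near the 10th percentile of all windows (38.8%), and 65.6% for Timp3 and 68.0% for Timp2, near the 90th (69.2%). These are matches of letters and not measurements of binding.

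Timp1 encodes an inducible inhibitor of metalloproteinases that is also a marker of fibrosis in many organs. It lies at chrX:20870166-20874735 on the plus strand, inside the synapsin gene Syn1 on the opposite strand, with no overlapping exons. Control mice had 1.28, 1.77, 2.88 and 2.04 FPKM. The CKD mice had 91.0, 298, 278 and 156 FPKM, and CKD+Fe mice had 93.3, 172, 71.5 and 126 FPKM. Every mouse fed adenine was above every control mouse, and the upper CKD mice, 022301 and 110310, were above all CKD+Fe mice. On the log2 scale Timp1 was higher by 5.99 in CKD (SE 0.35, adjusted p = 4.09e-08). Syn1 itself averaged 0.051 (control), 0.229 (CKD) and 0.196 FPKM (CKD+Fe). Markers of injured tubule (Havcr1, Lcn2, Vcam1, Krt20 and Sox9) summed to 9.77 to 25.6 FPKM (control), 781 to 1824 (CKD) and 641 to 1176 (CKD+Fe), and their part in the Mmp7 and Timp1 levels was not tested.

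Mmp14, the membrane-bound activator of pro-Mmp2, and Mmp2, gelatinase A, are made largely by mesenchymal cells. Mmp14 starts at 54431612 on the plus strand of chromosome 14 and ends at 54441265 in the deposited table and at 54445364 in the annotation used here. Control mice had 4.24, 3.76, 4.57 and 5.28 FPKM, CKD mice 62.2, 80.6, 110.5 and 77.9 FPKM, and CKD+Fe mice 127, 45.3, 47.1 and 52.0 FPKM. All but 1 of the CKD+Fe mice were below the lowest CKD mouse, and the exception, 042702, had the highest level of all 12 mice. Mmp2 lies at chr8:92827291-92853420 on the plus strand. Its levels were 2.30, 1.41, 3.09 and 1.70 FPKM (control), 34.7, 47.0, 61.5 and 34.2 FPKM (CKD), and 68.9, 31.2, 37.0 and 51.3 FPKM (CKD+Fe). The highest levels of Mmp2 were again in CKD mouse 110310 and CKD+Fe mouse 042702, which were also highest in Mmp14 within their groups. Against control, the CKD mice had a log2 fold change of 3.92 for Mmp14 (SE 0.28, adjusted p = 1.74e-07) and 3.85 for Mmp2 (SE 0.26, adjusted p = 1e-07). Fibroblast and myofibroblast markers summed to 79.8 to 114 FPKM (control), 374 to 668 (CKD) and 346 to 458 (CKD+Fe), and their part in both levels was not tested.

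Mmp9 encodes gelatinase B, which is stored in neutrophil granules and also made by macrophages and tubule cells. It lies at chr2:164940780-164955850 on the plus strand. Levels were 0.149, 0.125, 0.261 and 0.228 FPKM (control), 2.09, 6.30, 5.26 and 5.59 FPKM (CKD), and 5.74, 2.33, 2.85 and 4.47 FPKM (CKD+Fe). It was the lowest member in all 3 groups by mean, although in control mice it overlapped Mmp7. The rise in CKD mice was 2.21 on the log2 scale (SE 0.27, adjusted p = 1.16e-05), and 3.99 with a pseudocount of 0.1 FPKM. Because no control mouse reached 1 FPKM, Mmp9 and Mmp7 entered the test only through the mice fed adenine. The neutrophil markers summed to 1.82 to 6.68 FPKM (control), 61.1 to 232 (CKD) and 52.1 to 147 (CKD+Fe). Most of this was S100a8 and S100a9, which averaged 57.9 and 52.7 FPKM in CKD mice. Ly6g averaged 0.249 (control), 0.944 (CKD) and 0.762 FPKM (CKD+Fe). Of the 8 neutrophil markers, the granule enzyme genes Elane and Mpo were under 1 FPKM in all mice, and 4 markers averaged at least 1 FPKM. The part of neutrophils in the Mmp9 level was not tested.

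Timp2, the inhibitor that also takes part in pro-Mmp2 activation, lies at chr11:118301069-118355740 on the minus strand. Control mice had 20.2, 18.0, 26.0 and 17.5 FPKM, CKD mice 118, 109, 94.6 and 129 FPKM, and CKD+Fe mice 171, 60.8, 85.5 and 91.1 FPKM. The spread was widest in CKD+Fe mice, whose highest mouse was again 042702. CKD exceeded control by a log2 fold change of 2.41 (SE 0.25, adjusted p = 3.19e-06), and 1.81 after median-of-ratios rescaling.

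Timp3, an inhibitor that stays bound to the extracellular matrix and also blocks several ADAM proteases, lies at chr10:86300372-86349506 on the plus strand, inside the gene Syn3 on the opposite strand. Levels were 412, 398, 319.7 and 469 FPKM (control), 249, 211, 176 and 273 FPKM (CKD), and 207, 257, 268 and 213 FPKM (CKD+Fe). Every mouse fed adenine was below the lowest control mouse, 042301. CKD against control gave a log2 fold change of -0.82 (SE 0.17, adjusted p = 0.00077). It was -1.44 after median-of-ratios rescaling, but -0.46 with quantile normalization (adjusted p = 0.11), under which Timp3 was not called. Syn3 and Timp3 share 1 pair of overlapping exons. Syn3 averaged 4.09, 2.01 and 2.82 FPKM in control, CKD and CKD+Fe mice, against 399.8, 227 and 236 FPKM for Timp3. Endothelial markers summed to 81.6 to 165 FPKM (control), 72.1 to 101 (CKD) and 73.1 to 122 (CKD+Fe), and podocyte markers to 59.9 to 75.5 FPKM, 95.8 to 132 and 52.3 to 237. The 5 proximal tubule markers other than Kap summed to 1524 to 2645 FPKM (control), 249.5 to 517 (CKD) and 324 to 744 (CKD+Fe). Collecting duct markers summed to 259.6 to 1135 FPKM, 113 to 345 and 178 to 358 in the same order. Those of thick ascending limb and distal tubule summed to 1520 to 2183 FPKM, 2256 to 3398 and 1988 to 3070. The part of cell composition in the Timp3 level was not tested.

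In CKD against control mice, 7 of 8 members were called higher, against 54.6% of all genes tested, and 1 of 8 was called lower, against 13.3%. The median log2 fold change was 3.88 over the members and 0.502 over all genes. The members were chosen with earlier results of these data known. Mmp7 and Mmp9 entered the test only through the mice fed adenine, so the counts are a description. All 8 members had groups that did not overlap, 7 higher and 1 lower, where 44.6% of genes with a value in every mouse were separated upward and 10.4% downward. For each member the exact two-sided permutation test gave p = 0.0286, the smallest that 4 mice against 4 allow. Without the mouse farthest from the rest of each group, 7 members were again called higher and 1 lower. In CKD+Fe against control mice, 7 members were called higher and 1 lower, against 54.4% and 11.0% of all genes. In that comparison 7 members were separated upward and 1 downward, against 50.4% and 9.82% of genes. Its log2 fold changes ran from 1.97 for Mmp9 to 5.68 for Mmp7 among the higher genes, with -0.75 for Timp3 (adjusted p = 0.00157). The 2 comparisons share the 4 control mice, so they are not independent of each other, and the comparison of CKD+Fe with CKD shares the CKD mice. With quantile normalization Timp3 was not called in this comparison either (log2 fold change -0.48, adjusted p = 0.104).

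**Figure D2:**
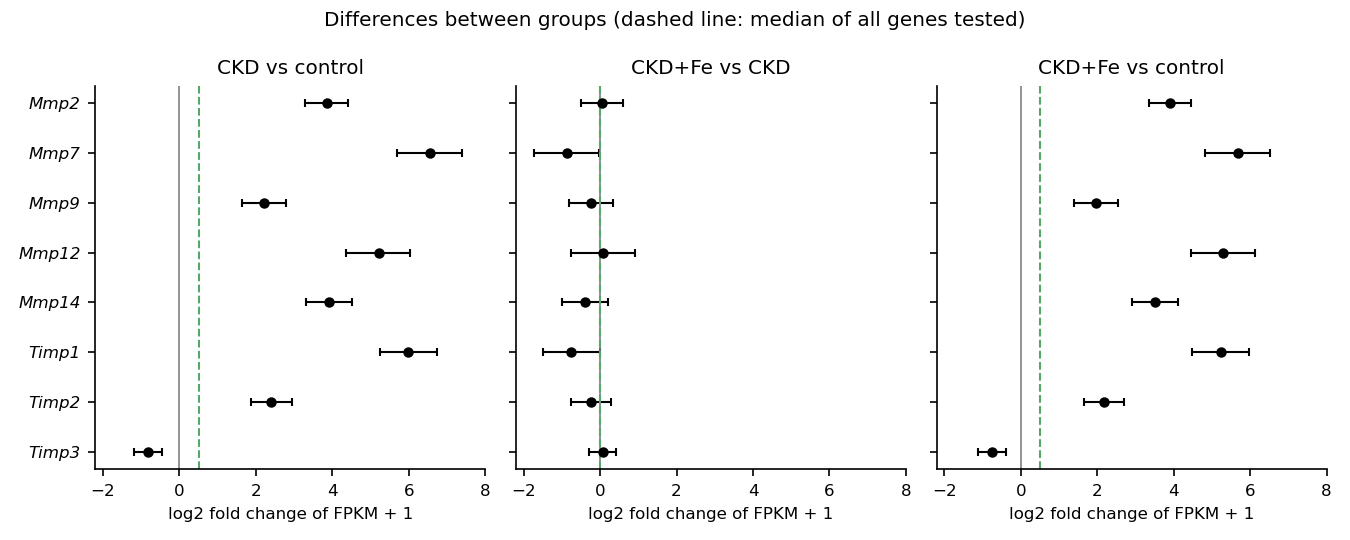
Log2 fold change of FPKM + 1 for each member in the 3 comparisons, with 95% confidence intervals from limma, a grey line at 0 and a dashed line at the median of all genes tested. Against control, 7 members lie to the right of the dashed line and Timp3 lies to the left of 0, while in CKD+Fe against CKD mice 6 of 8 intervals cross 0 and those of Mmp7 and Timp1 end just below it.

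Whether iron dextran changed the expression of these genes is addressed by CKD+Fe against CKD mice. None of the 8 members was called by limma in either direction, where 0.00761% of all genes were called higher and 0.0% lower. Before adjustment, 2 of 8 were lower and 0 higher at p under 0.05, against 2.73% and 3.28% of all genes. The groups overlapped for all 8 members, while 1.35% of genes were separated upward and 1.08% downward. Mmp7 had a log2 fold change of -0.87 (95% confidence interval -1.72 to -0.02, adjusted p = 0.824), with means of 128 ± 64.3 FPKM (CKD) and 72.0 ± 32.5 FPKM (CKD+Fe; SD, n = 4 each). Its exact permutation p was 0.229. Without CKD+Fe mouse 062910 the log2 fold change of Mmp7 was -0.42, and without CKD mouse 022301 it was -0.57. Timp1 had a log2 fold change of -0.75 (95% confidence interval -1.50 to -0.0028, adjusted p = 0.828), with means of 206 ± 99.0 FPKM (CKD) and 116 ± 43.5 FPKM (CKD+Fe; SD, n = 4 each), and an exact permutation p of 0.2. The remaining members ranged from -0.40 for Mmp14 (SE 0.28) to 0.08 for Mmp12, with an interval of -0.76 to 0.91. For Mmp2 the interval was -0.49 to 0.61 and for Timp3 -0.29 to 0.43. Adjusted p ran from 0.824 to 0.996 over the 8 genes. These intervals leave room for changes of either sign in most members, and a missing call does not show equal expression. Without CKD+Fe mouse 042702 the log2 fold change was -0.74 for Mmp14 (adjusted p = 0.127), -0.52 for Timp2 (adjusted p = 0.292), -0.19 for Mmp12 and -0.14 for Mmp2. Without CKD+Fe mouse 062910 the log2 fold change was -0.02 for Timp2 and -0.25 for Mmp14. With 1 mouse left out, that of Mmp14 ran from -0.74 to -0.25 and that of Timp2 from -0.52 to -0.02.

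The balance among the inhibitors was compared within each mouse, since a share of FPKM in 1 library does not depend on how mice are scaled to each other. Timp3 made up 91.7 to 96.0% of the summed FPKM of the 3 inhibitors in control mice, 32.1 to 54.3% in CKD mice and 43.9 to 63.0% in CKD+Fe mice. Timp1 took 0.295 to 0.826% in control, 19.9 to 50.7% in CKD and 16.8 to 35.1% in CKD+Fe mice. The sum itself was 422 ± 57.8 (control), 546 ± 66.0 (CKD) and 454 ± 31.6 FPKM (CKD+Fe; SD, n = 4 each), and its ranges in control (349 to 489 FPKM) and CKD mice (458 to 618 FPKM) overlapped. The 5 proteases summed to 9.52 ± 2.88 (control), 387 ± 125 (CKD) and 323 ± 132 FPKM (CKD+Fe; SD, n = 4 each). Mmp14 had the largest mean share of the protease sum in control mice, at 49.0%, and 22.7% in CKD mice. Mmp7 went from 2.59% of the sum in control to 31.8% in CKD and 22.2% in CKD+Fe mice, and Mmp12 held 23.9%, 32.1% and 40.9%.

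**Figure D3:**
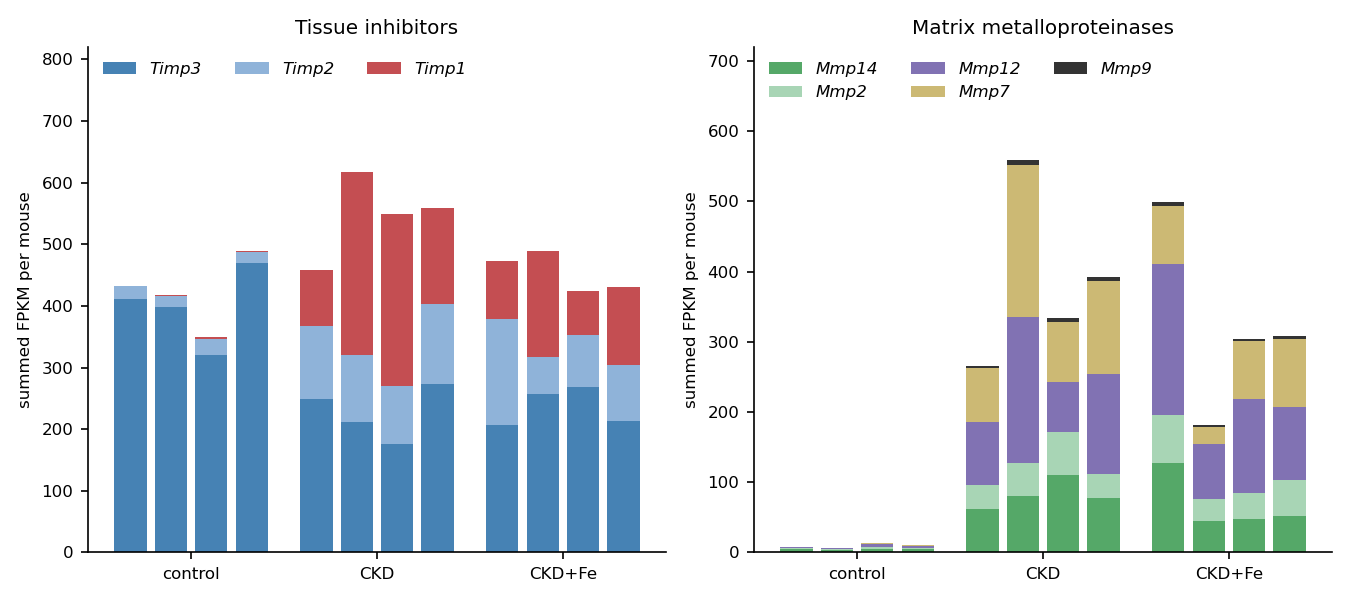
Summed FPKM of the 3 inhibitors and of the 5 proteases in each mouse, as bars stacked by gene and grouped by control, CKD and CKD+Fe. Inhibitor bars run from 349 to 618 FPKM and change from nearly all Timp3 to a mixture, while protease bars go from at most 13.2 FPKM in control mice to between 181 and 559 FPKM in mice fed adenine.

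Ratios within a mouse were taken after 1 FPKM was added to each gene, so those of low genes depend on that amount and somewhat on scaling. The log2 ratio of Timp1 to Timp3 was between -7.50 and -6.37 in control mice and between -1.44 and 0.66 in CKD mice, a difference of 6.81. Mmp2 rose relative to Timp2 by 1.43, and Mmp14 relative to Timp2 by 1.50, on the same scale. Mmp9 relative to Timp1 went the other way, with a difference of -3.77, or -2.53 with 0.1 FPKM added (exact permutation p = 0.0286). These 4 of the 6 ratios did not overlap between CKD and control mice, each with an exact two-sided permutation p of 0.0286 and 0.0643 after adjustment over all 18 tests, which is above the threshold. The Mmp7 to Timp1 ratio differed by 0.56 (exact permutation p = 0.143), but by 1.93 (exact permutation p = 0.0286) with 0.1 FPKM added, since Mmp7 is near 0 in control mice. The difference in the Mmp12 to Timp1 ratio was -0.78 (exact permutation p = 0.143). No ratio separated CKD+Fe from CKD mice, and the Timp1 to Timp3 ratio differed by -0.82 (exact permutation p = 0.257).

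**Figure D4:**
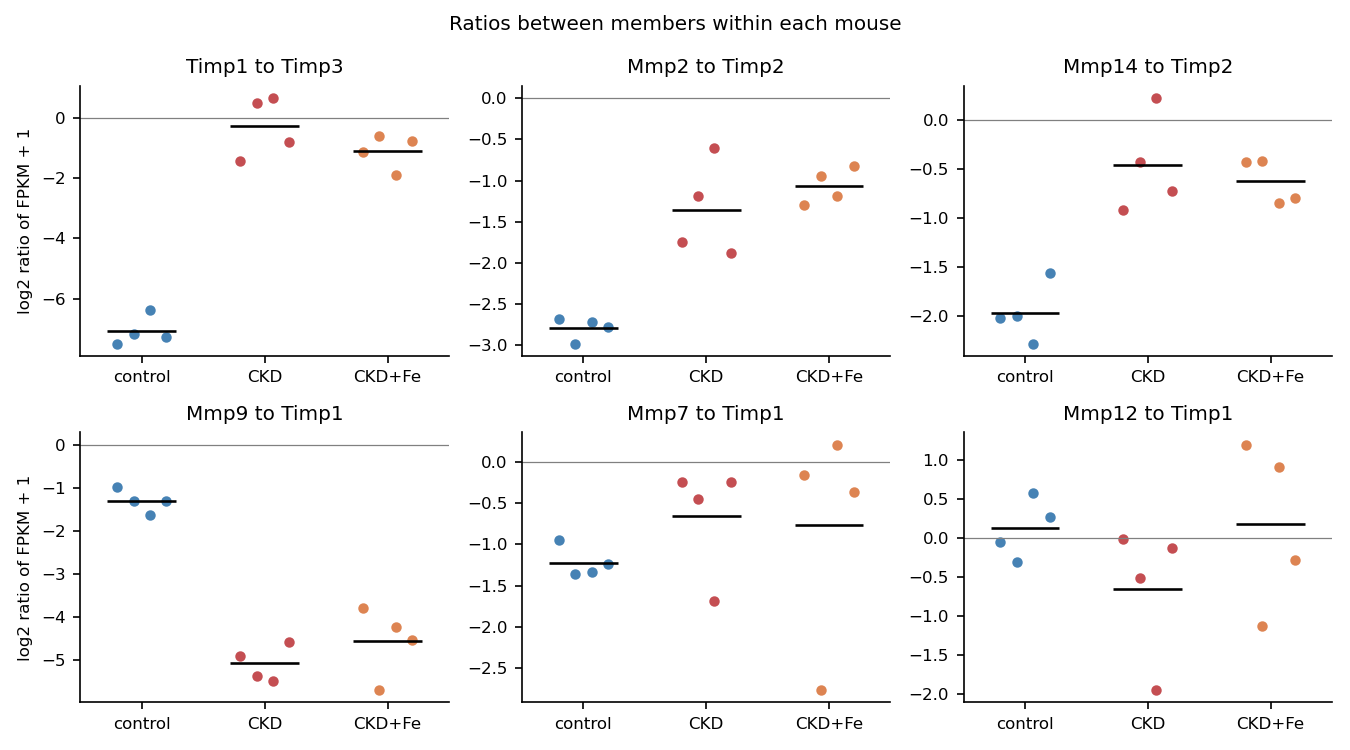
Log2 ratio of FPKM + 1 between pairs of members in each mouse, with points for mice, black lines at group means and a grey line at equal levels. Timp1 to Timp3, Mmp2 to Timp2 and Mmp14 to Timp2 are higher, and Mmp9 to Timp1 lower, in every CKD mouse than in every control mouse, while the CKD and CKD+Fe points overlap in all 6 panels.

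Within groups the order of levels was not firm. In control mice Timp3 at 399.8 FPKM and Timp2 at 20.4 FPKM stood apart from each other and from the rest, and Mmp14, Mmp12, Mmp2 and Timp1 overlapped their neighbours in the order between 4.46 and 1.99 FPKM. In CKD mice each of the neighbours from Timp3 to Mmp14 overlapped the next, over means from 227 to 82.8 FPKM, while Mmp2 at 44.4 FPKM and Mmp9 at 4.81 FPKM stood below them. Mmp12 came second after Timp3 in CKD+Fe mice, with a mean of 132 FPKM, and only Mmp9, at 3.85 FPKM, did not overlap its neighbour.

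Mmp7 and Mmp12 belong to a cluster of 10 metalloproteinase genes over 427 kb of chromosome 9, and their neighbours were read because of this position. Of the 10, only Mmp13, Mmp12, Mmp3 and Mmp7 had enough expression to be tested. Mmp3, stromelysin 1, lies between the 2 members and averaged 0.3 (control), 7.37 (CKD) and 7.83 FPKM (CKD+Fe) (log2 fold change in CKD against control 2.56, SE 0.30, adjusted p = 9.34e-06). It was under 1 FPKM in every control mouse and entered the test only through the mice fed adenine. Mmp13, a collagenase at the other end of the cluster from Mmp7, averaged 1.13, 1.33 and 0.897 FPKM and was not called (log2 fold change 0.13, adjusted p = 0.562). Mmp1a and Mmp1b were listed at 0 in every group mean, and Mmp8, Mmp10, Mmp20 and Mmp27 averaged under 1 FPKM in every group. Mmp12 and Mmp1b overlap on opposite strands. Among the 10 genes, Mmp12, Mmp7 and Mmp3 were the 3 that averaged over 5 FPKM in CKD mice.

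**Figure D5:**
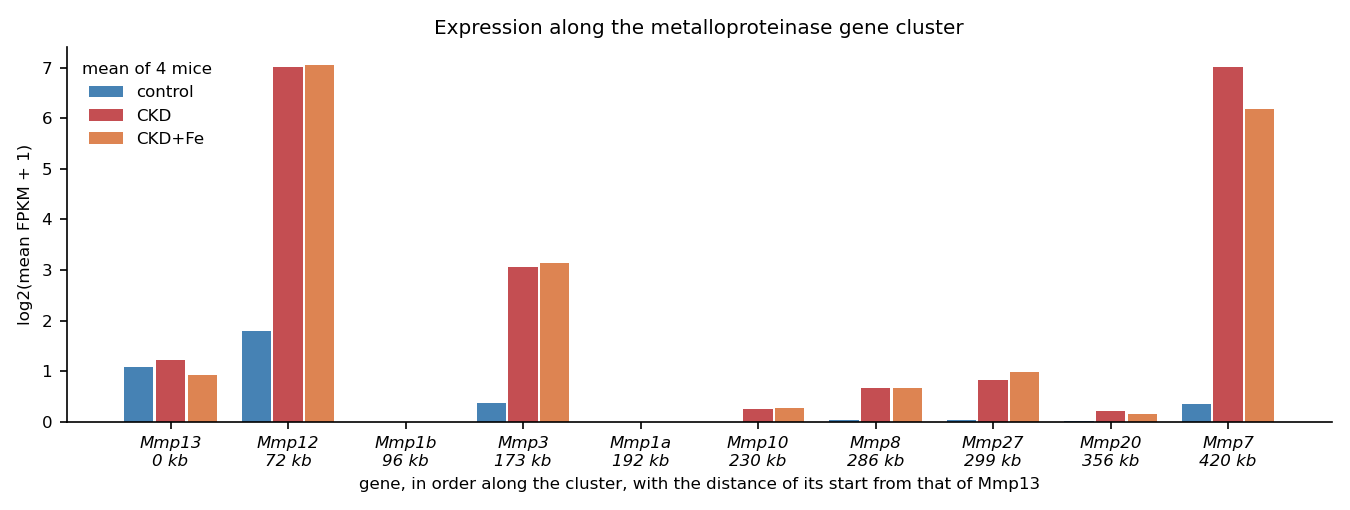
Mean level, as log2(mean FPKM + 1), of the 10 metalloproteinase genes of the chromosome 9 cluster in their order along it, with 1 bar for each group of 4 mice and the distance in kb of each start from that of Mmp13. Mmp12 and Mmp7, near opposite ends, have the tallest bars in CKD and CKD+Fe mice, with Mmp3 next, and Mmp13 differs little between groups.

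The other matrix proteases, activators and inhibitors were read from a list of 46 genes, of which 31 were tested. In CKD against control mice 24 were called higher and 1 lower, against 54.6% and 13.3% of all genes, with a median log2 fold change of 1.65. Of the 24, 7 (Mmp3, Mmp19, Adam8, Adam12, Adam19, Adamts2 and Adamts4) were under 1 FPKM in every control mouse and entered the test only through the mice in which they were higher, so the count is a description. Among the 31 were 5 of 7 other Mmp genes, 5 of 7 Adam genes, 6 of 7 Adamts genes and 8 of 10 further genes called higher. Among the largest rises, as log2 fold changes, were those of Ctss (4.12), a lysosomal elastase of macrophages, Serpine2 (3.53), an inhibitor of serine proteases, and Ctsk (3.33), a collagen-degrading cathepsin. Bsg, a cell surface protein that induces metalloproteinases, was called lower (-0.45, adjusted p = 0.0135). In CKD+Fe against CKD mice none of the 31 was called. At an unadjusted p under 0.05 there were 7 lower and 0 higher genes, against 2.73% and 3.28% of all genes, and the median was -0.14. In CKD+Fe against control mice 24 were called higher and 1 lower, against 54.4% and 11.0% of all genes, with a median of 1.31. The lower call, that of Bsg, was lost when control mouse 012811 or 042301 or CKD+Fe mouse 042702, 111710 or 122320 was left out, which gave a count of 0.

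Substrates and binding partners of these proteases were read from a list of 23 genes, all tested. All 23 were called higher in CKD than in control mice, against 54.6% of all genes, with a median log2 fold change of 2.08. The list was chosen with earlier results of these data known, so the count is a description. Lcn2 (7.05), which binds Mmp9, had the largest log2 fold change, followed by the osteopontin gene Spp1 (4.84), Fn1 (3.80), which encodes fibronectin, and Cd44 (3.71), a receptor for hyaluronan that holds Mmp9 and Mmp7 at the cell surface. In CKD+Fe against CKD mice none was called. At an unadjusted p under 0.05 there were 8 lower and 0 higher genes, against 2.73% and 3.28% of all genes, and the median was -0.44. Fn1 had the lowest log2 fold change, -1.03 (adjusted p = 0.348). All 23 were called higher in CKD+Fe against control mice, against 54.4% of all genes, with a median of 1.78.

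Genes with the pattern most like each member were found by the Pearson correlation of log2(FPKM + 1) over the 12 mice, as a description. Mice fed adenine differ from control mice in most genes, and each mouse is scaled to its own total, so high values are common. For Mmp12 they were Ctss (r = 0.996), a macrophage-rich protease, Bcl2a1b (0.994) and the leukocyte gene Cd53 (0.994). For Mmp7 they were Enc1 (0.996), the neutrophil chemokine gene Cxcl5 (0.995) and Tmeff1 (0.995). Timp1 was closest to Clu (0.994), Spp1 (0.994) and Bmp1 (0.993), and Mmp14 to Llgl1 (0.997), Inpp5d (0.995) and Dnmt1 (0.995). Among the genes nearest to Mmp2 were Mapkapk3 (0.992) and Arpc1b (0.990), and those nearest to Mmp9 were F10 (0.992), Neurl1a (0.986) and Clec18a (0.985). Timp2 was closest to Sept8 (0.998), Plxna1 (0.995) and Slain1 (0.993), and Timp3 to Cox15 (0.981), Ugp2 (0.980) and Map3k15 (0.968).

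When the mean of each group was first taken away, the nearest genes changed for most members. Sept8 was again first for Timp2 (0.991, with Meis1 at 0.964) and F10 for Mmp9 (0.962, with Bex2 at 0.958). The deviations of Mmp14 were most like those of Slc27a3 (0.970) and Pacs1 (0.955), and those of Mmp2 most like Glis1 (0.952) and Zfp13 (0.950). Mmp7 was nearest to Wfdc17 (0.955) and Ehmt1 (0.945), and Mmp12 to Cd38 (0.945) and Zfp105 (0.944). Timp1 had Dusp5 (0.908) and Mrpl24 (0.904), and Timp3 had Trpc1 (0.966) and Slc8a1 (0.966).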

How the data were processed

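Total RNA of whole kidney from 12 mice was made into stranded mRNA libraries and sequenced with single-end reads of 50 cycles. Per the labels, bcl2fastq 2.19, STAR 2.5.2, Cufflinks 2.1.1 and the GRCm38 build were used; the annotation release and counting settings were not given in the sources used here. The authors deposited FPKM values, 1 per gene and mouse, and 30 failed estimates in 17 genes were treated as missing (none in a member). FPKM are not counts, so no count model was used. The depth was estimated at about 18200000 to 26700000 reads per mouse from the step of 1 read in single-transcript genes over 1000 nt. It limits values near 0.

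The test on log2(FPKM + 1) was that of limma 3.58.1, run in R 4.3.3 (variance trend, 12 mice in 1 fit, 13148 genes that reached 1 FPKM in 4 or more mice, two-sided, Benjamini-Hochberg adjustment, threshold 0.05). Single values used exact two-sided permutation of 4 mice against 4 (70 arrangements). The fit was also run on simulated data in which few genes differed, unlike CKD against control mice here. That run therefore checked the calculation only. Positions and exons came from GENCODE M21 and the deposited table, and promoters from RefSeq. From each list the 4 largest called rises and falls in CKD against control mice were to be named, and any gene called in CKD+Fe against CKD mice. The 3 genes most correlated with each member over all mice, and the 2 in deviations from group means, were named too. Of the genes these rules pick, 2 are not reported here. Genes of the chromosome 9 cluster, Syn1 and Syn3 were added for their position. The members and lists were chosen with earlier results of these data known. Alternatives were another pseudocount, other filters, scalings, weights and thresholds, and mice left out. The labels name no batch.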

Additional observations from a re-analysis of the deposited data

Results flagged for a closer look

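Mmp14 in CKD+Fe mouse 042702, at 127 FPKM, lay apart from the other CKD+Fe mice, which had 45.3 to 52.0 FPKM. The gap to the nearest mouse was 0.918 of the range of the group, above the 95% critical value of Dixon's test for 4 samples. It was the only such value among the 24 groups of 4 mice checked (8 members in 3 groups), and chance gives about 1 in 20. This mouse also lay farthest from the rest of the CKD+Fe mice over all genes.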

How the results depend on the processing

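Every member tested against control had the same direction and side of the threshold under every alternative run (Mmp9 was not tested with a filter at a mean of 5 FPKM), except quantile normalization, under which 0 members were called lower in place of 1 in both comparisons with control (Timp3, log2 fold change -0.46 in CKD and -0.48 in CKD+Fe mice). No member was called in CKD+Fe against CKD mice under any alternative. There, values near 0 changed sign. The log2 fold change of Mmp12 was -0.12 with array weights and -0.43 without the mouse farthest from the rest of each group, and -0.19 to 0.35 with 1 mouse left out. That of Timp3 was -0.02 with quantile normalization, -0.01 with array weights and -0.05 to 0.16 with 1 mouse left out, and that of Mmp2 was -0.14 to 0.23 with 1 mouse left out. Of the protease list, 3 genes were lower with quantile normalization in both comparisons with control, 15 were higher in both with a filter at a mean of 5 FPKM (fewer genes tested), and 2 were lower in CKD against control mice with no filter. Between CKD+Fe and CKD mice, an adjusted p threshold of 0.5 called 1 protease gene and 2 substrate genes lower, and array weights or leaving out the 3 farthest mice called 1 substrate gene lower. The lower call of Bsg in CKD+Fe against control mice ranged from 0 to 1 with 1 mouse left out (lost without 012811, 042301, 042702, 111710 or 122320), and at a threshold of 0.5 the lower count was 2. Apart from the constructions named, the cause was not tested. The Mmp7 to Timp1 ratio in CKD against control mice passed an unadjusted p of 0.05 with a pseudocount of 0.1 (1.93). No paired analysis was possible because the groups share no replicate numbers. The 4 mice per group, the few reads behind Mmp7 and Mmp9 in control mice, and tissue that holds all kidney cells limit these values.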
